A study of Mus musculus with 8 samples.

Results

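The genes described here encode the components of elastic fibers and the enzymes that crosslink them: Eln, Fbn1, Fbn2, Mfap2, Mfap5, Fbln5, Lox, Loxl1, Loxl2 and Loxl3. They were chosen by name, with earlier results of these data known. These 10 genes were all found among the 22520 genes of the liver endothelial cell table. Each gene's level was followed in WT mice and in mice bred to lose LRP1 in endothelial cells. LRP1 is a large endocytic receptor of the LDL receptor family. An elastic fiber has a core of crosslinked elastin, the protein that lets arteries, lung and skin recoil, laid down on a scaffold of fibrillin microfibrils. Microfibril-associated glycoproteins decorate the scaffold, and fibulins bring elastin to it. Lysyl oxidases are copper-dependent secreted enzymes that oxidise lysines in elastin and collagen, which starts the covalent crosslinks, and in liver they are known for their part in fibrosis.

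RNA was sequenced from liver cells of C57BL/6 mice at postnatal day 14, in 4 WT and 4 LRP1 eKO libraries. The cells had been taken with beads coated with an antibody to PECAM-1, and the study's methods call them primary microvascular endothelial cells. WT mice were Cdh5-CreER-/- littermates with both Lrp1 alleles floxed. LRP1 eKO mice carried the same floxed alleles together with 1 copy of Cdh5-CreER, in which the promoter of Cdh5 (VE-cadherin) drives a Cre that tamoxifen activates, and effects of CreER alone cannot be told apart from those of losing Lrp1. The labels do not say whether the libraries came from separate animals, and p-values then measure the spread between these libraries. The values are quantile-normalized signals. Neither the unit before that step nor a scaling by gene length is given in the sources used here, so levels are compared between libraries, and not between genes.

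Lrp1 itself was 61.6, 59.0, 56.2 and 85.1 in the 4 WT libraries and 6.01, 2.16, 5.15 and 4.32 in the 4 LRP1 eKO libraries. Its eKO mean was 6.74% of the WT mean (log2 fold change −3.66 ± 0.23, SE), and every library followed its label. Bulk signal does not show in which cells Lrp1 fell, and this was not tested. The same libraries had a low signal of endothelial markers and a high one of several markers of other cell types, as given below. Total signal was nearly the same in all libraries, from 484445 to 485947, as quantile normalization makes it. Pearson correlations of log2 signal ran from 0.990 to 0.998 within WT, from 0.985 to 0.998 within LRP1 eKO and from 0.964 to 0.981 between them. WT replicate 4 stood apart in its group, as the library farthest from the group median in 61.7% of the genes tested, and LRP1 eKO replicate 2 was farthest in 37.2%. For the members in which either library lay at the end of its group, fold changes without it are given below.

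The endothelial label was checked against marker genes. The endothelial adhesion proteins Pecam1 and Cdh5 were at 2.09 ± 0.416 and 1.86 ± 0.430 in WT (SD, n = 4) and at 3.02 ± 0.911 and 3.70 ± 1.34 in LRP1 eKO. The 8 endothelial markers summed to 21.8 to 23.9 in WT and 21.6 to 35.2 in LRP1 eKO, and 6 markers of liver sinusoidal endothelium to 7.04 to 10.1 and 6.14 to 25.5. The sinusoidal scavenger receptor Stab2 was 0.500 ± 0.0374 in WT and 1.13 ± 0.773 in LRP1 eKO, and the hyaluronan receptor Lyve1 was 1.79 ± 0.168 and 2.20 ± 0.930. For both genes the WT and LRP1 eKO libraries overlapped. Sums of other cell types' markers were 1676 to 1927 and 1495 to 1817 for 6 fibroblast genes, 1498 to 1563 and 1842 to 1927 for 6 smooth muscle genes, and 1442 to 1821 and 1874 to 2085 for 4 mesothelial genes. Acta2 and Tagln, at means of 811 and 674 in WT, made up most of the smooth muscle sums. The other smooth muscle markers were lower in WT, with Smtn at 44.5, Cnn1 at 4.70, Lmod1 at 3.55 and Myh11 at 0.534. Scaling by gene length is unknown. With that limit, endothelial markers had a low signal in libraries where several mesenchymal and the mesothelial markers had a high one. This goes against a pure endothelial label. In bulk samples, fewer cells of a type and less RNA per cell cannot be told apart.

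**Figure D1:**
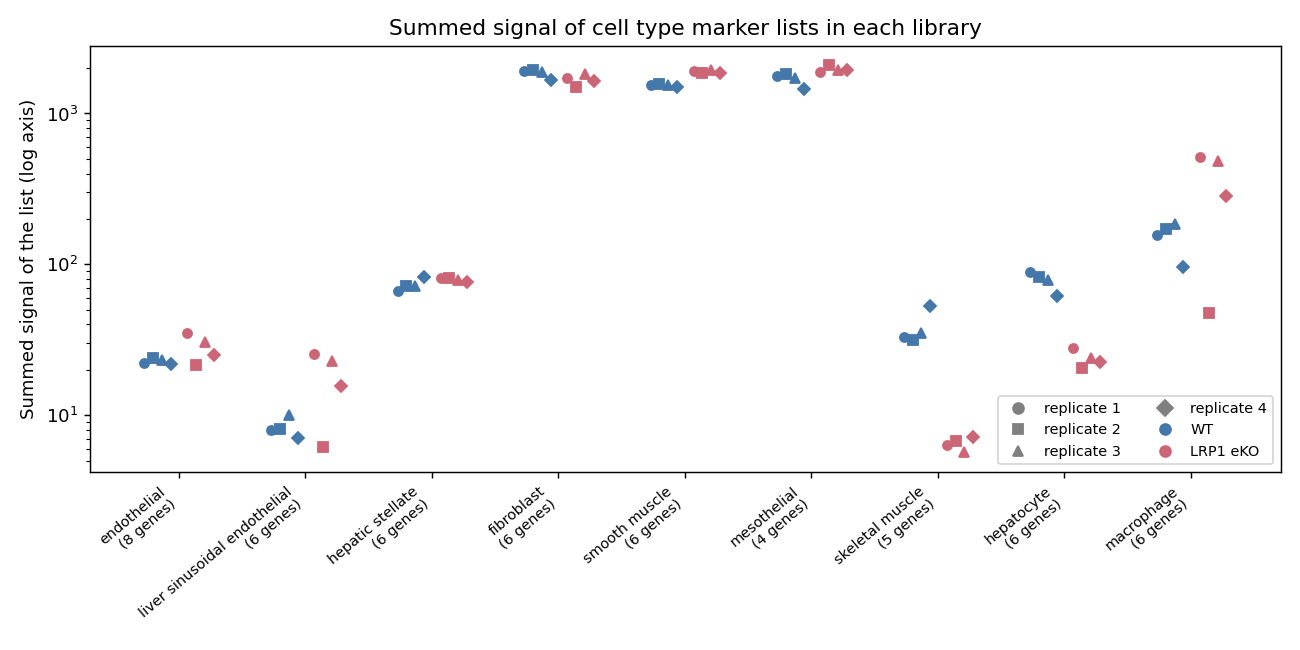
Summed quantile-normalized signal (log axis) of 9 marker lists in each of the 8 libraries, with WT in blue, LRP1 eKO in red and the symbol giving the replicate. Fibroblast, smooth muscle and mesothelial sums all lie at 1442 or above, endothelial sums lie between 21.6 and 35.2, and the skeletal muscle and hepatocyte sums are lower in every LRP1 eKO library than in every WT library.

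The RNA signal of the elastin gene Eln and of the microfibril glycoprotein gene Mfap2 fell in LRP1 eKO. That of Lox, Loxl2, Loxl3, Fbn1 and Fbln5 rose. Of the 9 member genes that reached a signal of 1 in 4 or more libraries, 3 were lower (Eln, Mfap2 and Loxl1) and 5 were higher at a limma adjusted p under 0.05, and Mfap5 did not pass. Over all 11391 genes tested, 22.2% were lower and 19% were higher by the same rule. Only Eln and Mfap2 also passed a 2-fold change, and with WT replicate 4 and eKO replicate 2 both left out their log2 fold changes of −0.92 and −0.99 were short of it. A 2-fold change was passed by 0.79% of all genes tested as lower and by 0.869% as higher. The groups did not overlap for 8 of the 9, against 42.6% of all genes tested. Members were chosen with earlier results of these data known, so their counts beside these shares are a description. The median log2 fold change of the 9 was 0.25, from −1.20 to 0.89, and that of all genes tested was −0.0095. Fold changes are on the scale of log2(signal + 1), which understates the change of low genes.

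**Figure D2:**
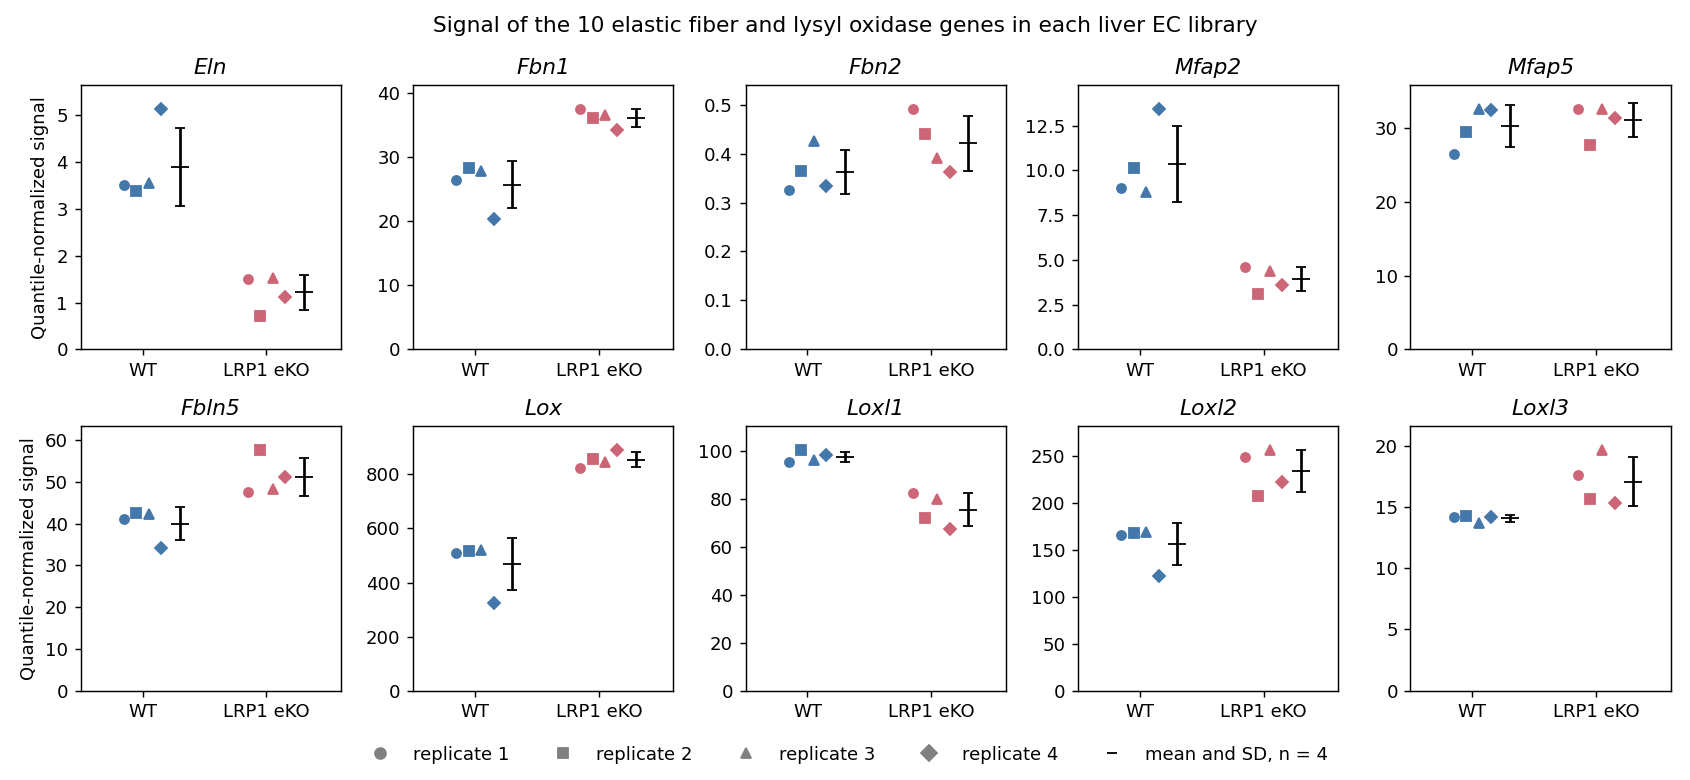
Quantile-normalized signal of each of the 10 genes (vertical axes, each from 0) in 4 WT (blue) and 4 LRP1 eKO (red) libraries, with symbols for the replicates and bars for mean ± SD. All LRP1 eKO points lie below all WT points for Eln, Mfap2 and Loxl1 and above them for Fbn1, Fbln5, Lox, Loxl2 and Loxl3, while the groups overlap for Fbn2 and Mfap5.

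Eln encodes tropoelastin, the soluble monomer from which the elastic core is built, and lies on chromosome 5 (GRCm38, 134702593 to 134747323, minus strand). Its signal was 3.51, 3.38, 3.55 and 5.13 in WT and 1.501, 0.720, 1.52 and 1.12 in LRP1 eKO. The highest eKO library was below the lowest WT library, WT replicate 4 stood above the other WT libraries, and eKO replicate 2 was the lowest of all. The eKO mean was 1.21 ± 0.378 and the WT mean 3.89 ± 0.827 (SD, n = 4), so that eKO held 31.2% of the WT signal. The log2 fold change was −1.15 (SE 0.14, 95% interval −1.47 to −0.82, adjusted p = 2.5e-04), and it was −1.03 without WT replicate 4 and −1.03 without eKO replicate 2. With a pseudocount of 5 in place of 1, a large one for a gene at this level, the log2 fold change was −0.51, and with 0.1 it was −1.63.

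Fbn1 (chromosome 2, 125300594 to 125507993, minus strand) encodes fibrillin-1, the main building block of microfibrils after birth. Its signal was 26.3, 28.3, 27.8 and 20.4 in WT and 37.5, 36.1, 36.5 and 34.1 in LRP1 eKO. Every eKO library was above every WT library, and WT replicate 4 was the lowest. The means were 25.7 ± 3.63 and 36.0 ± 1.40, a ratio of 1.40 and a log2 fold change of 0.48 (SE 0.092, adjusted p = 0.0028), which was 0.38 without WT replicate 4. Fbn1 shares 2442 exon bases with Gm9913 on the other strand, and whether counting used strand is not given in the sources. The signal of Gm9913 was 0.250 ± 0.0199 in WT and 0.381 ± 0.0656 in LRP1 eKO. Fewer exon bases are shared with other genes by Loxl3, given below, and by Loxl2 (308), Eln (267), Fbn2 (129) and Lox (30).

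Fbn2 (chromosome 18, 58008623 to 58210487, minus strand) encodes fibrillin-2, the fibrillin of fetal and early postnatal microfibrils. It was the member under the filter on low signals, with 0.325, 0.364, 0.426 and 0.335 in WT and 0.491, 0.439, 0.392 and 0.362 in LRP1 eKO. The groups overlapped. Fitted in the table without the filter, its log2 fold change was 0.061 (95% interval −0.023 to 0.15, adjusted p = 0.32).

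Mfap2 and Mfap5 encode the microfibril-associated glycoproteins MAGP-1 and MAGP-2, small proteins that bind fibrillin. Mfap2 (chromosome 4, 141010418 to 141015984, plus strand) was 9.03, 10.1, 8.81 and 13.4 in WT and 4.58, 3.11, 4.37 and 3.62 in LRP1 eKO. All eKO libraries were below all WT libraries, again with WT replicate 4 the highest and eKO replicate 2 the lowest. The means were 10.3 ± 2.13 and 3.92 ± 0.679, so that eKO held 37.9% of the WT signal, and the log2 fold change was −1.20 (SE 0.14, 95% interval −1.50 to −0.90, adjusted p = 1.3e-04). It was −1.08 without WT replicate 4 and −1.12 without eKO replicate 2.

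Mfap5 (chromosome 6, 122505845 to 122529290, plus strand) was 26.5, 29.5, 32.6 and 32.5 in WT and 32.5, 27.7, 32.6 and 31.3 in LRP1 eKO. The groups overlapped over nearly their whole range. The means were 30.3 ± 2.88 and 31.0 ± 2.29, and the log2 fold change was 0.037 with a 95% interval of −0.13 to 0.21 (adjusted p = 0.72), and 0.089 without eKO replicate 2. The interval of Mfap5 therefore lies apart from that of Mfap2.

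Fbln5 (chromosome 12, 101746565 to 101819055, minus strand) encodes fibulin-5, which binds tropoelastin and lysyl oxidase family enzymes and is needed for elastic fiber assembly. Its signal was 41.0, 42.5, 42.3 and 34.2 in WT and 47.6, 57.6, 48.3 and 51.1 in LRP1 eKO. The lowest eKO library was above the highest WT library, with WT replicate 4 the lowest and eKO replicate 2 the highest. The means were 39.998 ± 3.94 and 51.2 ± 4.53, a ratio of 1.28 and a log2 fold change of 0.35 (SE 0.082, adjusted p = 0.0080). It was 0.28 without WT replicate 4, 0.29 without eKO replicate 2 and 0.22 with both left out, where it kept its call.

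The bases just upstream of the RefSeq start sites are shown for Mfap2 and Fbln5, the members with a RefSeq window lying mostly outside annotated exons. Whether these sequences have a part in the changes of the 2 genes was not tested. Sequences are from RefSeq (GRCm38.p6), 5′ to 3′ on the gene's strand, without any base that lies in an annotated exon, at chr4:141010174-141010417 (plus strand) for Mfap2 and chr12:101819120-101819369 (minus strand) for Fbln5. Capitals mark CCGCCC, the reverse complement of the Sp1 GC box GGGCGG.
Mfap2: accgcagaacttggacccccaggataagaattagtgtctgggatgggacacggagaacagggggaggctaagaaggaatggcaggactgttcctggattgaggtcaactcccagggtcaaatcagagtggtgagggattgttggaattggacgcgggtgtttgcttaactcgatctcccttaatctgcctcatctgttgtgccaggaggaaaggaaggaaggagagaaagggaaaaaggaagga
Fbln5: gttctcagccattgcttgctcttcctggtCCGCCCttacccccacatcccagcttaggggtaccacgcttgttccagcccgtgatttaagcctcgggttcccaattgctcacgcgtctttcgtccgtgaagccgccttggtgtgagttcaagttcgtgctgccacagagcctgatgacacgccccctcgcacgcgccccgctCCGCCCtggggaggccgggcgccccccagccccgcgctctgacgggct
Both strands were searched for the TATA box TATAAA, the Sp1 GC box GGGCGG, the FoxO element TGTTTAC and the AP-1 element TGANTCA. Fbln5 held 2 GC boxes and none of the others, and Mfap2 held none of the 4. Of 32817 RefSeq windows of 250 bases, 12.4% held TATAAA, 32.7% GGGCGG, 3.16% TGTTTAC and 6.75% TGANTCA. Exon bases had not been removed from these windows, unlike the sequences shown. The GC content was 65.2% for Fbln5 and 51.2% for Mfap2, with a median of 52.4% over all these untrimmed windows. A match is a description of letters, not a bound site, and RefSeq windows were found for 3 of the 10 genes, the other one, of Fbn1, lying in exons.

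Within the lysyl oxidase family, Lox, Loxl2 and Loxl3 rose and Loxl1 fell. Lox (chromosome 18, 52516067 to 52529867, minus strand), the founding enzyme of the family, was 510, 517, 522 and 324 in WT and 824, 857, 844 and 889 in LRP1 eKO. Every eKO library was above every WT library, and WT replicate 4 was far below the other WT libraries. The means were 468 ± 96.0 and 854 ± 27.5, a ratio of 1.82 and a log2 fold change of 0.89 (SE 0.14, 95% interval 0.59 to 1.20, adjusted p = 8.1e-04). Without WT replicate 4 the log2 fold change was 0.72.

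Loxl1 (chromosome 9, 58287738 to 58313186, minus strand) encodes the family member most closely tied to elastin, which it brings together with fibulin-5. Its signal was 95.8, 100.5, 96.3 and 98.5 in WT and 82.4, 72.1, 80.3 and 67.7 in LRP1 eKO. All eKO libraries were below all WT libraries, and WT replicate 4 lay among the other WT libraries. The eKO mean of 75.6 ± 6.93 was 77.3% of the WT mean of 97.8 ± 2.16 (log2 fold change −0.37, SE 0.063, adjusted p = 0.0014).

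Loxl2 (chromosome 14, 69609068 to 69695834, plus strand), an enzyme that crosslinks collagen IV of basement membranes, was 166, 168, 169 and 122 in WT and 249, 208, 256 and 223 in LRP1 eKO. The groups did not overlap, and WT replicate 4 was again the lowest. The means were 156 ± 22.6 and 234 ± 22.7, a ratio of 1.497 and a log2 fold change of 0.59 (SE 0.11, adjusted p = 0.0024), which was 0.47 without WT replicate 4 and 0.64 without eKO replicate 2.

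Loxl3 (chromosome 6, 83034173 to 83052562, plus strand), a further amine oxidase of the family, was 14.2, 14.3, 13.7 and 14.2 in WT and 17.6, 15.7, 19.6 and 15.3 in LRP1 eKO. The groups did not overlap, with the eKO libraries spread more widely than the WT ones. The means were 14.1 ± 0.267 and 17.1 ± 1.99, a ratio of 1.21 and a log2 fold change of 0.25 (SE 0.074, adjusted p = 0.021). This call was lost without the filter on low signals (adjusted p = 0.062), without WT replicate 3 (0.051) and without eKO replicate 1 (0.055). Loxl3 shares 535 exon bases with Htra2 on the other strand, and Htra2 was 33.5 ± 2.03 in WT and 35.8 ± 1.63 in LRP1 eKO (adjusted p = 0.19).

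Ratios between members within a library do not depend on a scaling of the whole library. The pairs were chosen after the values had been seen, so the ratios are a description, and only their change between groups has a meaning, since scaling by length is unknown. Lox over Loxl1 was 4.79 ± 1.01 in WT (3.29 to 5.42) and 11.4 ± 1.42 in LRP1 eKO (9.99 to 13.1), 2.37 times as high. Mfap5 over Mfap2 was 2.99 ± 0.528 and 8.03 ± 0.886, and Fbn1 over Mfap2 was 2.60 ± 0.733 and 9.39 ± 1.58. The choice of the pairs, each setting a gene that did not fall over one that fell, fixed the direction of these ratios.

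**Figure D3:**
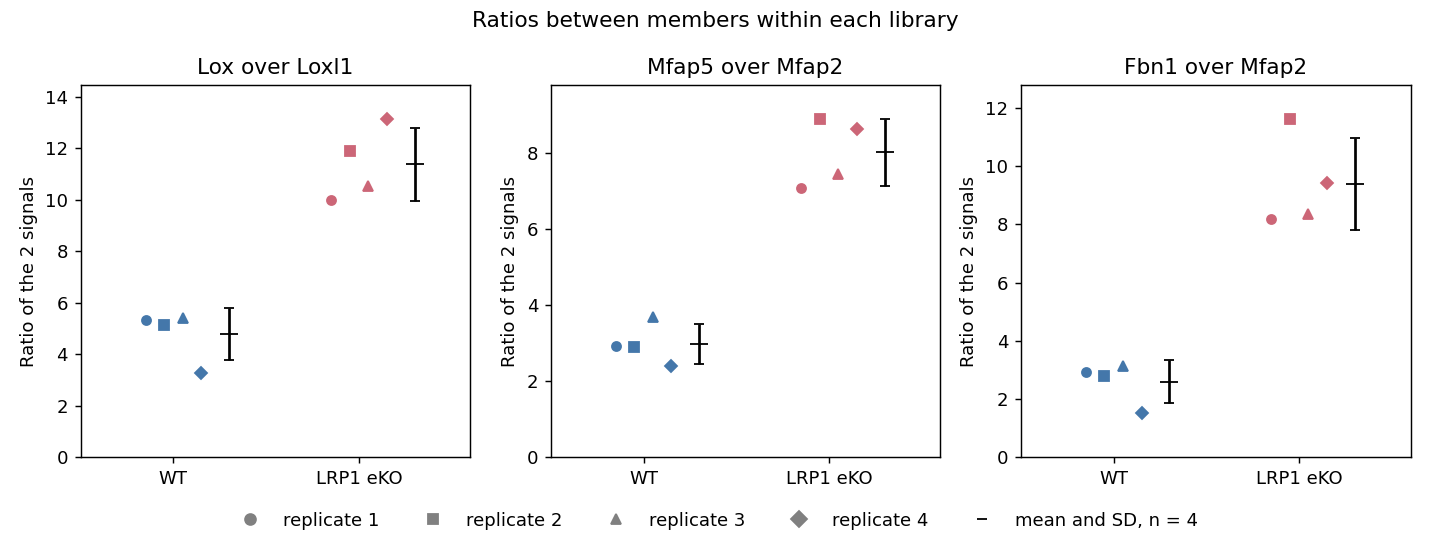
Ratios of the signals of Lox over Loxl1, Mfap5 over Mfap2 and Fbn1 over Mfap2 in each of the 4 WT (blue) and 4 LRP1 eKO (red) libraries, on linear axes from 0, with symbols for the replicates and bars for mean ± SD. The LRP1 eKO libraries lie above all WT libraries in each panel, and WT replicate 4 has the lowest ratio in each.

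A list of 20 further genes of elastic fiber assembly, also chosen with earlier results known, was examined in the same way. All were found in the table, 18 passed the filter, and Mfap4 and Adamtsl2 did not. Of the 18, 3 were lower, 7 were higher and 8 did not pass the test, beside the 22.2% lower and 19% higher of all genes. No gene of the list passed 2-fold in limma's test, also with unadjusted p. The median log2 fold change was 0.16, from −0.87 to 0.87.

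**Figure D4:**
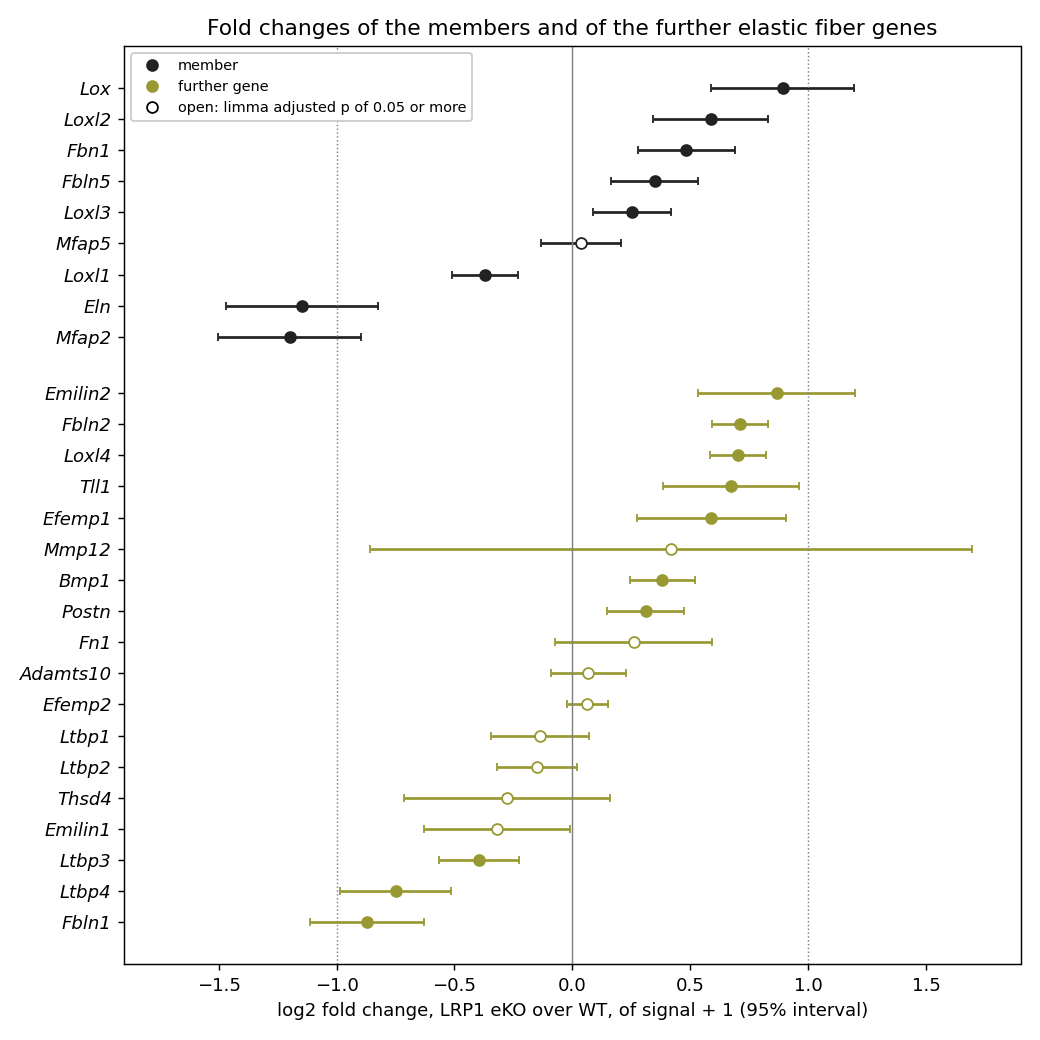
Log2 fold changes of signal + 1, LRP1 eKO over WT, with 95% intervals from limma, for the 9 members tested (black) and the 18 further genes tested (olive), filled where the adjusted p was under 0.05; dotted lines mark a 2-fold change. Eln and Mfap2 are the genes left of the lower dotted line, at −1.15 and −1.20.

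Assembly glycoproteins of the fibulin and emilin families changed in both directions, with 1 lower, 3 higher and 2 not called of 6, where 22.2% of all genes tested were lower and 19% higher. Fbln1, fibulin-1, which is found in the elastic core, was 9.48, 9.27, 8.91 and 10.4 in WT and 5.51, 3.61, 5.52 and 4.59 in LRP1 eKO. Its groups did not overlap, and its eKO mean was 50.5% of the WT mean (log2 fold change −0.87, adjusted p = 2.5e-04). Fbln2, fibulin-2, was higher in every eKO library, at 856 ± 55.4 against 522 ± 14.8 (0.71, adjusted p = 8.7e-06). Efemp1, fibulin-3, was 108 ± 20.9 against 70.9 ± 10.4 (0.59, adjusted p = 0.0089) and lost its call without the filter (adjusted p = 0.054). Its log2 fold change was 0.48 without WT replicate 4. Emilin2, a glycoprotein of the elastin and microfibril interface family, was 15.1 ± 3.62 against 7.64 ± 0.590 (0.87, adjusted p = 0.0015), or 1.03 on the log2 scale without eKO replicate 2. Efemp2 (fibulin-4), which is needed for lysyl oxidase to reach elastin, was 126 ± 3.35 in WT and 132 ± 3.75 in LRP1 eKO, with a 95% interval of −0.025 to 0.15 on the log2 scale.

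The latent TGF-beta binding proteins, which hold latent growth factor on microfibrils, had 2 lower and none higher of 4, beside the same 22.2% and 19% of all genes tested. Ltbp4, the member that also takes part in elastin deposition, was 20.9, 24.7, 22.0 and 28.2 in WT and 13.5, 11.7, 15.9 and 14.1 in LRP1 eKO. All eKO libraries were below all WT libraries, with an eKO mean at 57.7% of the WT mean (log2 fold change −0.75, SE 0.11, adjusted p = 5.1e-04). Ltbp3 was 73.0 ± 3.57 in WT and 55.5 ± 6.12 in LRP1 eKO (−0.39, adjusted p = 0.0029). Without WT replicate 4, Ltbp1 and Thsd4 also passed the test as lower, which raised the lower genes of the list from 3 to 5.

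The remaining lysyl oxidase, Loxl4, rose without overlap of the groups. It was 1.47, 1.48, 1.55 and 1.49 in WT and 2.97, 3.17, 3.09 and 3.01 in LRP1 eKO, a ratio of 2.04 and, with the pseudocount of 1, a log2 fold change of 0.70 (SE 0.053, adjusted p = 9.9e-06). The spread within each group was small beside this difference. Among genes that act on lysyl oxidase maturation, 3 of 4 were higher, as were 19% of all genes tested. Bmp1, a proteinase that cuts the propeptide from Lox, was 55.3 ± 0.895 in WT and 72.6 ± 6.61 in LRP1 eKO (0.38, adjusted p = 0.0011). Its relative Tll1 was 6.10 ± 1.28 and 10.2 ± 0.996 (0.67, adjusted p = 0.0029, or 0.53 without WT replicate 4), and the matrix protein Postn, which binds Bmp1, was 52.5 ± 4.00 and 65.4 ± 5.70 (0.31, adjusted p = 0.0083).

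Mmp12, macrophage elastase, which degrades elastin, was 13.8, 15.6, 17.4 and 7.57 in WT and 34.4, 3.74, 34.4 and 19.9 in LRP1 eKO. The groups overlapped because eKO replicate 2 was the lowest of all libraries, and the test was not passed (log2 fold change 0.42, adjusted p = 0.58). Without eKO replicate 2 it was 1.08 (adjusted p = 0.014). The 6 macrophage markers summed to 95.9 to 184 in WT and 47.9 to 518 in LRP1 eKO, and their lowest sum was also in eKO replicate 2. The macrophage marker Adgre1 was 2.80 ± 0.944 in WT and 9.20 ± 6.47 in LRP1 eKO (adjusted p = 0.19), and the receptor Csf1r was 2.58 ± 0.0557 and 6.32 ± 3.10 (adjusted p = 0.030). For both genes the groups overlapped, with eKO replicate 2 the lowest of all libraries.

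Several marker lists moved with the genotype beside the members, where 22.2% of all genes tested were lower and 19% higher. Of 6 endothelial markers tested, only Cdh5 was called, as higher (log2 fold change 0.68, limma adjusted p = 0.020), with overlapping groups. None of the 3 sinusoidal endothelial markers tested was called, and Stab2 was under the filter. All 4 tested skeletal muscle markers were lower in LRP1 eKO (median log2 fold change −1.89), with sums of 31.4 to 53.4 in WT and 5.69 to 7.14 in LRP1 eKO. The defining Ckm, muscle creatine kinase, stayed below 1 in every library, and the other defining gene, Acta1, was not found in the deposited table. All 4 tested hepatocyte markers were lower (median −1.67), with sums of 61.4 to 89.5 and 20.5 to 27.9, and albumin (Alb) at 20.8 ± 3.77 and 6.15 ± 0.505. The thyroid hormone carrier Ttr was 1.04 ± 0.104 and 0.555 ± 0.123. Among 5 fibroblast markers, 3 were lower (Pdgfra, Dcn and Lum). Pdgfra, a receptor for platelet-derived growth factor, was at 32.0 ± 1.11 in WT and 21.1 ± 2.44 in LRP1 eKO, and the collagen-binding proteoglycan Dcn at 563 ± 12.5 and 457 ± 20.03. The defining Dpt, under the filter, was 1.03 ± 0.326 and 0.602 ± 0.262, with overlapping groups.

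Of 6 smooth muscle markers, 5 were higher, beside 19% of all genes tested. Acta2 was at 811 ± 37.3 and 1066 ± 32.1 and Myh11 at 0.534 ± 0.0817 and 1.53 ± 0.102. Of 4 mesothelial markers, Msln was higher, at 1020 ± 125 and 1305 ± 51.0, and Upk3b was 396 ± 19.5 and 370 ± 25.7. Of 3 hepatic stellate markers tested, Hand2 was higher, while Des was 42.3 ± 4.98 and 44.2 ± 0.854 and Pdgfrb 16.1 ± 0.733 and 16.6 ± 0.635. The defining Lrat and Reln and the pericyte marker Rgs5 stayed below 1 in every library, with Rgs5 at 0.0550 ± 0.0158 and 0.168 ± 0.0435 (adjusted p = 0.013 in the unfiltered table). The Kupffer cell marker Clec4f was listed at 0 in all 4 WT libraries and at 0.826, 0.124, 0.537 and 0.427 in LRP1 eKO (adjusted p = 0.037 in the unfiltered table). Smooth muscle, fibroblast and mesothelial cells are also known to make elastic fiber and lysyl oxidase proteins, and the part of these cell types in the members' changes was not tested.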

How the data were processed

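RNA sequencing was done on 4 WT and 4 LRP1 eKO liver libraries. The deposited table gives 1 signal per gene and library, quantile-normalized by the authors. The submitters' processing notes name TopHat2, Cufflinks and mm10, and the study's methods describe another pipeline and not this table, so the unit before normalization and the depth are not given in the sources used here. Genes were matched by identifier to GENCODE M21 (GRCm38), which held 21740 of the 22520 identifiers. Signals were transformed to log2(signal + 1). The 11391 genes that reached a signal of 1 in 4 or more libraries were tested with limma 3.58.1 (trend) in R 4.3.3, with Benjamini-Hochberg adjustment over all of them. A call is an adjusted p under 0.05. Genes under the filter were fitted in the unfiltered table. The smallest exact two-sided permutation p for 4 against 4 is 0.029. Groups are those of the labels, and SEs are limma's. Member genes and lists were chosen with earlier results of these data known. Named are all 10 genes and Lrp1, the called genes of the further list, the defining genes (the first 2) of the marker lists and the genes most like Eln and Fbn1. Efemp2, Mmp12, Ltbp1, Thsd4, Dcn, Lum, Tagln, Cnn1, Lmod1, Smtn, Hand2, Des, Pdgfrb, Rgs5, Clec4f and the genes sharing exon bases were singled out after their values had been seen. Only the limma fit was tested on simulated data, with noise that was independent between libraries.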

Additional observations from a re-analysis of the deposited data

Results flagged for a closer look

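In 3 of 42 groups of 4 libraries, 1 library lay far from the other 3, by a gap that, as a share of the group's whole range, was above Dixon's 95% critical value. In a set of this size 2.1 such groups arise by chance, at about 1 in 20. All 3 were WT replicate 4. It was the highest WT library for Eln (gap 0.9 of the range, at 5.13 against 3.38 to 3.55), the lowest for Lox (0.937, at 324 against 510 to 522) and the lowest for Loxl2 (0.95, at 122 against 166 to 169). The direction of WT replicate 4 was away from the eKO libraries in each case, and the log2 fold changes without it were −1.03 for Eln, 0.72 for Lox and 0.47 for Loxl2.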

How the results depend on the processing

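The direction of each of the 8 called members was the same under every alternative that gave a value. Eln had none with a mean signal of at least 5 as the filter, which left 2 lower members. The lower members numbered 3 with any 1 library left out, and the higher members 4 to 5. Among the further genes, leaving out 1 library gave 3 to 5 lower and 7 to 8 higher. The lower ones numbered 5 with array weights, 5 without WT replicate 4, and 5 with WT replicate 4 and LRP1 eKO replicate 2 both left out. A 2-fold threshold left 0 higher members, 0 lower further genes and 0 higher further genes, also at an unadjusted p under 0.05 in limma. For single genes over all settings, 529 values kept their call or lack of one, 8 came to be called and 21 lost their call. The settings include 2 stricter rules, the 2-fold threshold and an adjusted p under 0.01. Most of the 21 losses came from the 2-fold threshold, which kept only Lrp1, Eln and Mfap2. Mfap5, which was not called, ran from −0.023 to 0.12 on the log2 scale. For libraries with the same replicate number, correlations of their deviations from the group means were −0.086, −0.13, 0.18 and 0.038. These values gave no sign of pairing, but with 4 libraries a group they cannot exclude it. With the replicate block the counts were 3 lower and 5 higher members and 3 lower and 7 higher further genes. The depth is unknown, so no counting error can be given, and signals near 1 such as that of Eln in LRP1 eKO rest on an unknown number of reads.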

Other observations

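After subtraction of the genotype means from log2(signal + 1), Pearson's r over the 8 libraries was 0.93 between Eln and Mfap2, −0.98 between Eln and Fbln5 and −0.94 between Mfap2 and Fbln5. It was 0.91 between Fbn1 and Lox, 0.88 between Fbn1 and Loxl2 and 0.84 between Loxl1 and Loxl3. Lox stood at 0.79 with Fbln5 and −0.79 with Mfap2, and Loxl1 at −0.18 with Lox and 0.21 with Fbn1. These values are descriptions, the libraries share the normalization, and WT replicate 4 and LRP1 eKO replicate 2 lie at the ends of many of these genes. By the same measure, the genes most like Eln were Npr1, a natriuretic peptide receptor (r = 0.987), Zranb3 (0.984), Gstm7 (0.984), Sparcl1, a secreted matrix protein (0.982), and Fam176b (0.981). Those most like Fbn1 were Cbl (0.997), Cep350 (0.996), Sel1l (0.996), Smarcc1 (0.996) and Btbd7 (0.995).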
